A study of Mus musculus with 6 samples.

Results

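S100 proteins are small calcium-binding proteins, and 10 of their genes were followed in mouse chondrocytes, the cell type of cartilage: S100a1, S100a4, S100a6, S100a8, S100a9, S100a10, S100a11, S100a13, S100a16 and S100b. They were chosen by symbol, and all 10 were found among the 55487 genes of the files. The cells were C57B/6 knee cartilage chondrocytes kept for 24 h with extracellular vesicles (membrane-bound particles shed by other cells), dosed by their protein at 10 µg/ml. The vesicles of 3 libraries were from macrophages that had met LPS, the endotoxin of bacteria (M-LPS-EV), and those of the other 3 from macrophages without LPS (M-EV). Both groups thus received macrophage vesicles, cells without vesicles were not analysed here, and each difference is one between vesicle types. According to its title, the study asks whether vesicles of inflammatory macrophages start non-canonical pyroptosis, a lytic cell death, and cartilage breakdown. The labels do not say whether the replicates came from separate cultures or animals. P-values therefore reflect the spread among these 6 samples alone, and that spread may be technical.

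Each S100 protein carries a pair of calcium-binding EF-hand loops and usually works as a dimer. Calcium opens a surface that grips target proteins, among them annexins, the giant scaffold protein AHNAK and non-muscle myosin, so the proteins act inside cells on the cytoskeleton, membranes and enzymes. S100a10 is the exception that no longer needs calcium. Some are also released and act on receptors such as RAGE and TLR4; S100A8 and S100A9 together form calprotectin, which neutrophils and monocytes hold in large amounts and which is raised in inflamed joints. S100a1 and S100b are long known as genes of chondrocytes, where SOX transcription factors drive them.

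The libraries held 20239626 to 23539911 expected counts with M-LPS-EV and 22274687 to 25712667 with M-EV. Libraries of a group differed by more than sampling noise (chi-square per degree of freedom 1.66 to 2.78, against 26.7 to 34.1 between groups). The chondrocyte label was borne out by its defining genes: all 9 markers listed for it had enough counts, and Col2a1, the main cartilage collagen, averaged 76338 ± 999.8 CPM with M-LPS-EV and 86151 ± 650.4 CPM with M-EV (counts-per-million on TMM-adjusted library sizes; mean ± SD, n = 3 each, as throughout). Of 14604 genes tested, 31.6% were called at an adjusted p under 0.05 (edgeR quasi-likelihood test, two-sided, Benjamini-Hochberg adjustment over all tested genes), 16.4% higher and 15.2% lower with M-LPS-EV. The median log2 fold change of all tested genes was 0.003, and the median size without its sign was 0.129.

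Of the 10 genes, 9 lie on mouse chromosome 3 and S100b on chromosome 10. The bases just upstream of the genes are shown for S100b, the member that fell, and for S100a4 and S100a6, which both rose. They are also shown for S100a8 and S100a9, which stayed near the detection limit, and for the gap between the starts of S100a1 and S100a13. The sequences are from RefSeq on GRCm38.p6, written 5′ to 3′ on the strand of the gene, and stop before the annotated transcript start; capitals mark a match to 1 of the searched motifs.
S100b (chr10:76253586-76253835, plus strand): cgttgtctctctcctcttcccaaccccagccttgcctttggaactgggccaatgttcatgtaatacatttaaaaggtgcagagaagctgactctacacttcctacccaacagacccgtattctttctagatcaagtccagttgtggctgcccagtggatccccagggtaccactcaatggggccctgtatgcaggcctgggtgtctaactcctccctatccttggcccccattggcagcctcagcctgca
S100a4 (chr3:90603520-90603769, plus strand): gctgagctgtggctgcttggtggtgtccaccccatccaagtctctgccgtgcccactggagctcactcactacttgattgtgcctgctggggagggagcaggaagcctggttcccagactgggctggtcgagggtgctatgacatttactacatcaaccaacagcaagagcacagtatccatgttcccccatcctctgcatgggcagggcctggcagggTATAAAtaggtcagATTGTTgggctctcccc
S100a6 (chr3:90612644-90612881, plus strand): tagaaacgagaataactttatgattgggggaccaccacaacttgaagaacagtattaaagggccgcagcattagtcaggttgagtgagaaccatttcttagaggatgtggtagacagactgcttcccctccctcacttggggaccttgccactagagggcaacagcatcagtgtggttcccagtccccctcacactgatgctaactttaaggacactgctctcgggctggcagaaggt
S100a8 (chr3:90668821-90668977, plus strand): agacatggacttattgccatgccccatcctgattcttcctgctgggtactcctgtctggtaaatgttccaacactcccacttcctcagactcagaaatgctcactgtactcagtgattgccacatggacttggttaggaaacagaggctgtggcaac
S100a9 (chr3:90695722-90695971, minus strand): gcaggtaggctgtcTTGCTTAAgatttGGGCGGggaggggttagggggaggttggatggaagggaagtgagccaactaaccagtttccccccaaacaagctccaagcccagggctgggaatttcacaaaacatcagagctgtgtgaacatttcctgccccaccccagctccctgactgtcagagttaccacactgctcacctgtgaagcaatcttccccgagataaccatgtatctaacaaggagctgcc
S100a1 and S100a13 gap (chr3:90514393-90514434, plus strand): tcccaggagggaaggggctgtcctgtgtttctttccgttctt

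The motifs were searched on both strands in the 250 bases before the RefSeq start: the TATA box (TATAAA), the GC box (GGGCGG), AP-1 (TGANTCA), C/EBP (TTGCNNAA), SOX (AACAAT) and the NF-kB motif kappaB, given by name. Promoters were listed for 9 of the 10 genes. S100a4 held 1 TATA box match, which 12.4% of all 32851 listed promoters share, and 1 SOX match (9.4% of all), which is on the other strand of the printed sequence. S100a9 held 1 C/EBP match (9.6% of all) and 1 GC box match (32.7% of all). S100b and S100a6 held no match to any of the 6 motifs. For S100a6 only the window at its upstream start was searched, not the bases before the downstream start of transcript S100a6-203. None of the 10 windows searched for the 9 genes held the kappaB motif, which is in 3.9% of all promoters. S100a8 held a TATA box match, in bases that GENCODE already counts as transcript and that are not printed. S100a11 held 2 AP-1 matches (6.7% of all) and 3 GC box matches. The second of the windows listed for S100a16 (90540896 to 90541145), directly before the start of transcript S100a16-204, held 1 GC box, 1 AP-1 and 1 SOX match. Such a match describes the letters only.

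Chondrocytes expressed 8 of the 10 genes well, at over 20 TPM (transcripts-per-million, a scale that corrects for length), and both calprotectin genes at under 2 TPM in every library. With M-LPS-EV 4 genes rose (S100a4, S100a6, S100a11 and S100a13), 1 fell (S100b) and 3 were not called (S100a1, S100a10 and S100a16); S100a8 and S100a9 had too few counts for the test. The share of tested genes called at all was 31.6% against 5 of the 8 tested members, and no more is read from the count. The CPM ranges of the groups did not overlap for the 5 called members, as for 42.2% of all tested genes. The changes were small: the strongest rise was 26.5% and the fall 23.6%. When edgeR's glmTreat asked for more than a 1.2-fold change, which 7.79% of tested genes passed, S100b passed and none of the other 7 did. Summed over the 10 genes, S100 transcripts made up 3126 ± 31.1 TPM with M-LPS-EV and 2971 ± 14.9 TPM with M-EV, with ranges of 3103 to 3161 and 2954 to 2983 TPM that do not overlap. On the CPM scale, which is not corrected for length, the summed levels did overlap, at 791 to 826 CPM with M-LPS-EV and 793 to 799 CPM with M-EV.

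**Figure D1:**
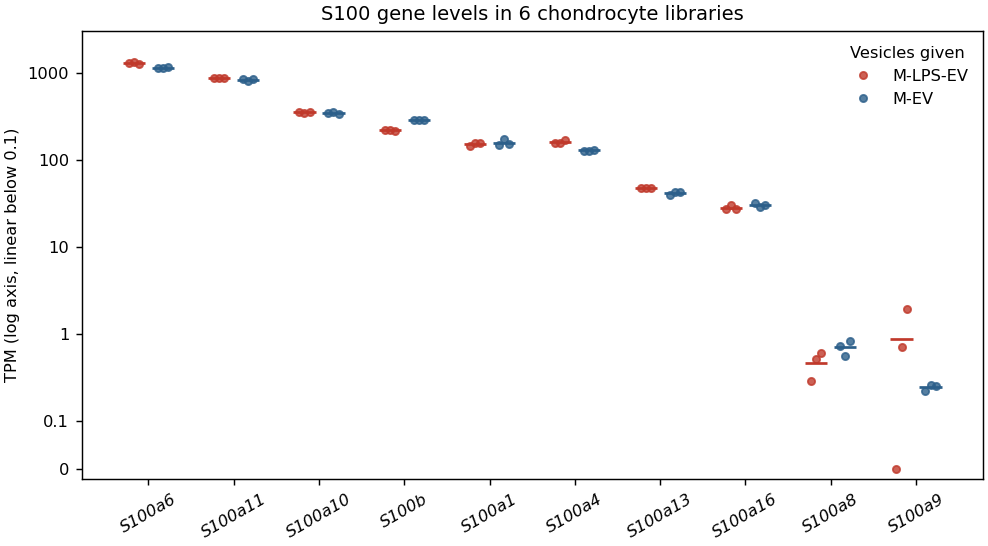
TPM of the 10 S100 genes in each library (points) with group means (lines), M-LPS-EV left of M-EV for each gene, on a log axis that is linear below 0.1. S100a6 and S100a11 stand highest, S100b is lower in all M-LPS-EV libraries, and S100a8 and S100a9 lie under 2 TPM in every library.

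S100b is the member tied most closely to chondrocytes, and in nervous tissue it marks glia. S100b (ENSMUSG00000033208, chromosome 10, 76253853 to 76261159, plus strand in mm10) stood at 160.2, 164 and 158 CPM in the M-LPS-EV libraries, against 211, 213 and 208 CPM in the M-EV libraries. All M-LPS-EV libraries were below all M-EV libraries, and the gap was larger than the spread within either group. The fall was 0.39 on the log2 scale (log2 fold change -0.39, SE 0.03, edgeR adjusted p = 5.3e-12), a change of -23.6% with a 95% interval from -26.3% to -20.7%. On the TPM scale it averaged 217 ± 4.06 with M-LPS-EV and 287 ± 2.69 with M-EV. Its only transcript, S100b-201, carried the fall (log2 fold change -0.39, SE 0.02, edgeR adjusted p = 0.00052 over all transcripts). It kept its call under all 17 alternative settings, with log2 fold changes from -0.40 to -0.37.

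In the same libraries 8 of the 9 listed chondrocyte markers fell and 1, Sox9, was not called, beside 15.2% called lower among all tested genes. The summed level of these markers was 101610 to 103780 CPM with M-LPS-EV and 120511 to 121653 CPM with M-EV. Acan, the main cartilage proteoglycan, had the same log2 fold change as S100b to the second decimal (-0.39, SE 0.01, edgeR adjusted p = 4.2e-18). Falls in the list were not all of that size. Matn1 averaged 1354 CPM with M-LPS-EV and 2522 CPM with M-EV, and Comp 2308 CPM with M-LPS-EV and 2588 CPM with M-EV. Markers of Schwann cells and adipocytes, which also express S100b, summed to 8.38 to 9.38 CPM with M-LPS-EV and 9.34 to 10.1 CPM with M-EV, far below S100b itself, and of 3 tested (of 7 listed) Fabp4 rose and Mbp fell, calls that were lost in 4 and 9 of the 17 alternatives. Whether the fall of S100b goes with that of the cartilage genes was not tested, and in bulk RNA fewer cells of a type and less RNA per cell cannot be told apart. S100b overlaps the last part of Dip2a, a gene on the opposite strand, by 1731 bases. The kit marks strand but the strand setting of the counting is not given; Dip2a stood at 29.0 ± 1.08 CPM with M-LPS-EV and 30.4 ± 0.738 CPM with M-EV and was not called (log2 fold change -0.06, edgeR adjusted p = 0.37).

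Over the 6 libraries, the genes whose log2 CPM ran most like that of S100b were Zfp354c, a zinc finger gene, Ank2, which encodes an ankyrin membrane adaptor, and Tnc, which encodes the matrix protein tenascin C (Pearson r 0.9995, 0.999 and 0.999). Tnc averaged 249 ± 5.40 CPM with M-LPS-EV and 330.2 ± 7.90 CPM with M-EV, a log2 fold change of -0.41. The libraries form separate groups, so r mainly follows the group difference: 816 of 14603 genes had an r above 0.95 with S100b.

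S100a1 is the other S100 gene long known in cartilage; in muscle its protein acts on calcium pumps and release channels. S100a1 (ENSMUSG00000044080, chromosome 3, 90511034 to 90514392, minus strand) stood at 39.4, 43.1 and 42.3 CPM with M-LPS-EV and at 40.1, 46.2 and 41.5 CPM with M-EV. The groups overlapped, and the gene was not called (log2 fold change -0.03, SE 0.05, edgeR adjusted p = 0.71), with a 95% interval from -8.83% to 5.23%. Its sign is not settled: it turned to 0.01 without M-LPS-EV replicate 1 and to 0.03 without M-EV replicate 2.

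S100a4 and S100a6 lie 9.11 kb apart, start to start, on chromosome 3, with S100a5, which had no count in any library, between them. S100a4, also called fibroblast-specific protein and known for binding non-muscle myosin, had the largest rise. S100a4 (ENSMUSG00000001020, 90603771 to 90606045, plus strand) stood at 25.3, 26.7 and 28.4 CPM with M-LPS-EV, against 21.1, 21.2 and 21.3 CPM with M-EV. The groups did not overlap, and the M-EV libraries lay closer together than the M-LPS-EV libraries. The log2 fold change was 0.34 (SE 0.06, edgeR adjusted p = 3.1e-05), a rise of 26.5% with a 95% interval from 16.7% to 37.1%. On the TPM scale S100a4 averaged 160.3 ± 8.24 with M-LPS-EV and 128 ± 0.394 with M-EV. Its main transcript, S100a4-201, held 95.9% ± 3.05 of the gene's abundance with M-LPS-EV and 96.4% ± 0.246 with M-EV. That transcript was called (log2 fold change 0.34, SE 0.07, edgeR adjusted p = 0.046), but without any 1 of the 6 libraries it was not (adjusted p between 0.050 and 0.15).

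Because S100a4 is also a fibroblast gene, the fibroblast markers stand beside it. Of 9 tested (of 10 listed) 3 rose, 3 fell and 3 were not called, beside 31.6% called among all tested genes. The call of 1 faller, Thy1, was lost in 6 of the 17 alternatives. The list's summed level was 2402 to 2461 CPM with M-LPS-EV and 2305 to 2330.4 CPM with M-EV. Dcn, the small proteoglycan decorin, averaged 629 ± 8.69 CPM with M-LPS-EV and 456 ± 6.86 CPM with M-EV, while Col1a2, a chain of the fibroblast collagen type I, averaged 497 ± 18.4 CPM with M-LPS-EV and 632 ± 15.2 CPM with M-EV. The part of fibroblasts in the S100a4 rise was not tested. The genes with log2 CPM most like that of S100a4 over the 6 libraries were Lims1, which encodes the focal adhesion protein PINCH1, Wnt5a, a secreted signal, and Spint2, an inhibitor of serine proteases, with Pearson r of 0.999, 0.999 and 0.997; 514 of 14603 genes had an r above 0.95. Wnt5a averaged 19.7 ± 0.947 CPM with M-LPS-EV and 16.2 ± 0.131 CPM with M-EV.

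S100a6, or calcyclin, binds annexins and a ubiquitin-ligase adaptor and was the most abundant member. S100a6 (ENSMUSG00000001025, 90612882 to 90624181, plus strand) stood at 286, 307 and 281 CPM with M-LPS-EV, against 249, 253 and 257 CPM with M-EV. All M-LPS-EV libraries were above all M-EV libraries. The log2 fold change was 0.21 (SE 0.03, edgeR adjusted p = 1.7e-06), a rise of 15.3% with a 95% interval from 10.8% to 19.9%. Its abundance was split almost evenly between a pair of transcripts that start 423 bases apart and share the same 267 coding bases. S100a6-201, from the upstream start, held 48.5% ± 2.44 of the gene with M-LPS-EV and 47.0% ± 1.12 with M-EV; S100a6-203 held 51.0% ± 2.52 with M-LPS-EV and 52.1% ± 1.21 with M-EV. The shares overlapped between the groups (exact permutation p = 0.5 and 0.6, two-sided). With 3 against 3 such a test cannot go below 0.1. The minor S100a6-202, a retained intron, held 0.38% to 0.53% with M-LPS-EV and 0.64% to 0.82% with M-EV, without overlap (exact permutation p = 0.1). Of 34683 transcripts that shared their gene with others, 11.6% had shares without overlap. S100a6-202 had 32.8 counts in all with M-LPS-EV and 45.9 with M-EV. It was not called by its counts (log2 fold change -0.35, SE 0.37, edgeR adjusted p = 0.78). Both main transcripts had positive log2 fold changes, 0.24 (SE 0.06) and 0.16 (SE 0.04), without passing the test over all transcripts (edgeR adjusted p = 0.091 and 0.071).

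**Figure D2:**
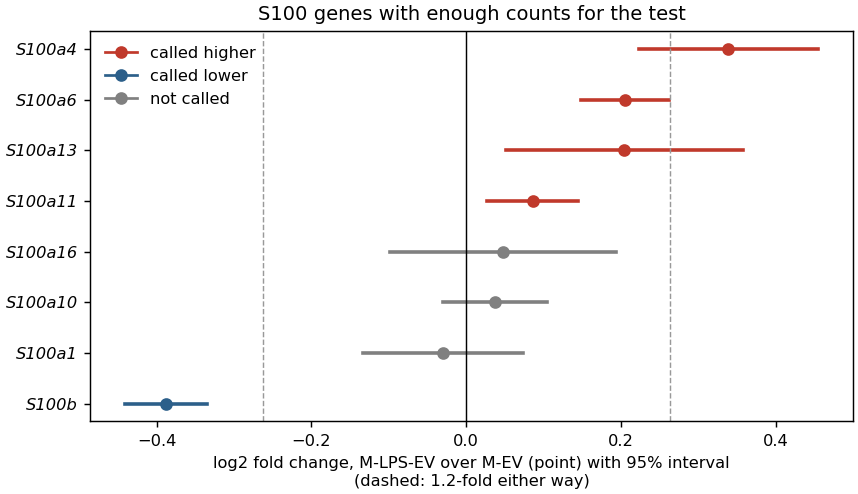
Log2 fold change (M-LPS-EV relative to M-EV, points) with 95% intervals (lines) for the 8 S100 genes with enough counts, from the edgeR fit across all genes; dashed lines mark a 1.2-fold change either way. S100b lies left of the lower dashed line with its whole interval, and the intervals of S100a4 and S100a13 cross the upper one.

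S100a13 takes part in the export of FGF1 and IL-1 alpha, proteins without a signal peptide. S100a13 (ENSMUSG00000042312, chromosome 3, 90514435 to 90524581, plus strand) stood at 14.03, 14.11 and 13.86 CPM with M-LPS-EV, against 11.5, 12.6 and 12.5 CPM with M-EV. The groups did not overlap, and M-EV replicate 1 was the lowest library. The log2 fold change was 0.20 (SE 0.07, edgeR adjusted p = 0.037), and the call was lost in 10 of the 17 alternatives, among them DESeq2 (adjusted p = 0.16), the effective length offset (edgeR adjusted p = 0.11) and no M-EV replicate 1 (log2 fold change 0.16, edgeR adjusted p = 0.16). The starts of S100a13 and S100a1 face away from each other across the 42 bases printed above, and their log2 fold changes were 0.20 (SE 0.07) and -0.03 (SE 0.05); the difference between them was not tested.

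S100a11 and S100a10 lie together about 3006 and 3041 kb from the S100a1 start. S100a11 binds annexin A1 and acts in membrane repair and in growth control of several cell types. S100a11 (ENSMUSG00000027907, chromosome 3, 93520488 to 93526287, plus strand) stood at 154, 159 and 156 CPM with M-LPS-EV, against 151, 143 and 149 CPM with M-EV. The groups did not overlap, but the highest M-EV library came close to the lowest M-LPS-EV library. The rise was 6.15% (log2 fold change 0.09, SE 0.03, edgeR adjusted p = 0.023), with a 95% interval from 1.90% to 10.6%. It was lost in 8 of the 17 alternatives, among them DESeq2 (adjusted p = 0.060), without M-LPS-EV replicate 2 (edgeR adjusted p = 0.072) and without M-EV replicate 2 (edgeR adjusted p = 0.16). S100a11 was also the 1 member whose summed expected counts were further than 0.05 from a whole number, as happens where reads are shared with another gene.

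S100a10, or p11, forms a tight complex with annexin A2 at the plasma membrane and brings plasminogen and ion channels there. S100a10 (ENSMUSG00000041959, chromosome 3, 93555080 to 93564643, plus strand) stood at 97.6, 97.3 and 99.4 CPM with M-LPS-EV and at 95.9, 97.5 and 93.3 CPM with M-EV. The groups overlapped, and the gene was not called (log2 fold change 0.04, SE 0.03, edgeR adjusted p = 0.43), with a 95% interval from -2.07% to 7.56%. Anxa2, the gene of its partner, rose to 708 ± 20.1 CPM with M-LPS-EV, against 617 ± 2.96 CPM with M-EV (log2 fold change 0.20, SE 0.02, edgeR adjusted p = 2.6e-08); it was picked out after its values were seen. The difference between the changes of these partner genes was not tested.

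S100a16 (ENSMUSG00000074457, chromosome 3, 90537254 to 90543151, plus strand), a broadly expressed member, stood at 14.03 to 14.79 CPM with M-LPS-EV and at 13.33 to 14.63 CPM with M-EV and was not called (log2 fold change 0.05, SE 0.07, edgeR adjusted p = 0.67; 95% interval from -6.62% to 14.4%). Its sign depended on the scale: with the effective length offset the log2 fold change was -0.09 and on log2(TPM + 1) it was -0.10, not called either way. The long S100a16-202 held 87.6%, 86.1% and 98.2% of the gene with M-LPS-EV, against 69.3%, 76.1% and 85.7% with M-EV. The short S100a16-204, which starts further downstream, held 0%, 13.9% and 1.83% with M-LPS-EV, against 30.7%, 19.9% and 14.3% with M-EV. Neither share overlapped between the groups, although the nearest libraries were less than a percentage point apart (exact permutation p = 0.1 for each, two-sided, the smallest that 3 against 3 allows), as for 11.6% of 34683 transcripts that shared their gene with others. Neither transcript was called by its counts (edgeR adjusted p = 0.62 and 0.54), and S100a16-204 had 25.8 counts in all with M-LPS-EV and 109.8 with M-EV. Both hold the same 372 coding bases.

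**Figure D3:**
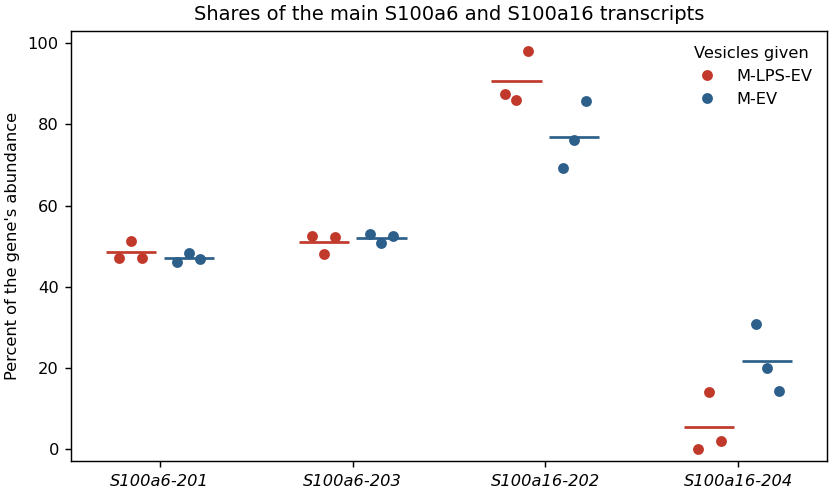
Percent of the gene's abundance held by the main transcripts of S100a6 and S100a16 in each library (points) with group means (lines), M-LPS-EV left of M-EV. The S100a6 transcripts lie close together in both groups, while S100a16-202 and S100a16-204 do not overlap between the groups.

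Of 26 listed transcripts of the 10 genes 13 had enough counts for the test, and 2 were called, S100b-201 and S100a4-201, beside 4.45% called among all 37245 transcripts tested. Shares that RSEM splits between transcripts carry an uncertainty that this test does not model.

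S100a8 and S100a9, the calprotectin genes, were near the detection limit in both groups. S100a8 (ENSMUSG00000056054, chromosome 3, 90668978 to 90670035, plus strand) had 1, 2 and 2 counts in the M-LPS-EV libraries and 3, 2 and 3 counts in the M-EV libraries. S100a9 (ENSMUSG00000056071, chromosome 3, 90692632 to 90695721, minus strand) had 0, 3 and 7 counts in the M-LPS-EV libraries and 1 in each M-EV library. The groups overlapped for both genes, and the S100a9 counts were unequal among the M-LPS-EV libraries. The count ratio of M-LPS-EV over M-EV was 0.670 for S100a8 (95% counting interval 0.172 to 2.32) and 3.57 for S100a9 (0.920 to 20.2); these intervals cover counting error only. Tested without a count filter, neither was called (edgeR adjusted p = 0.79 and 0.37). S100a8 summed to 5 counts with M-LPS-EV and 8 with M-EV, and S100a9 to 10 with M-LPS-EV and 3 with M-EV, so a modest difference was not detectable at this depth.

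Markers of neutrophils, which hold calprotectin, were also near 0. Of 12 listed, Ly6g, Elane and Retnlg had no count in any library, and the summed level was 1.23 to 1.71 CPM with M-LPS-EV and 0.355 to 0.680 CPM with M-EV. The 1 tested marker, Camp, the gene of the antimicrobial peptide cathelicidin, had 48 counts with M-LPS-EV and 1 with M-EV (count ratio 51.5, 95% counting interval 8.8 to 2074, edgeR adjusted p = 2.1e-06). It could reach the test only through its M-LPS-EV counts. Averaging 0.732 CPM with M-LPS-EV and 0.0151 CPM with M-EV, Camp made up most of the difference between the sums. Macrophage markers, 14 in number, summed to 33.8 to 38.7 CPM with M-LPS-EV and 25.9 to 29.2 CPM with M-EV. Of 9 tested 4 rose, none of the 9 fell and 5 were not called, beside 16.4% called higher among all tested genes. The call of 1 riser, Itgam, was lost in 9 of the 17 alternatives. Lyz2, the macrophage lysozyme, made up 22.2 CPM with M-LPS-EV and 15.5 CPM with M-EV. The list did not move as a whole: the complement genes C1qa and C1qb, too low for the test, had 2 and 5 counts with M-LPS-EV and 37 and 34 with M-EV, and Fcgr3, an Fc receptor, had 78 with M-LPS-EV and 116 with M-EV. The pan-leukocyte gene Ptprc had 20 counts with M-LPS-EV and 23 with M-EV. Keratinocyte markers, another source of calprotectin, summed to 5.66 to 6.22 CPM with M-LPS-EV and 3.55 to 4.67 CPM with M-EV. Both of the tested ones (of 7 listed), Krt10 and Trp63, rose, beside the same 16.4% over all tested genes. These calls were lost in 7 and 9 of the 17 alternatives, DESeq2 among them (adjusted p = 0.099 and 0.085). Krt5 and Krt15, too low for the test, had 4 and 1 counts with M-LPS-EV and 19 and 6 with M-EV. The part of such cells in the few S100a9 counts was not tested.

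The 7 other S100 genes in the files were as low. S100a5, S100g and S100z had 0 counts in every library, which allows up to 0.0459 CPM with M-LPS-EV and 0.0428 CPM with M-EV at 3 counts over the group. S100a2 had 6 counts with M-LPS-EV and 3 with M-EV, S100a14 had 4 with M-LPS-EV and 3 with M-EV, and S100a3, a gene of hair and skin, had 15 with M-LPS-EV and 25 with M-EV. S100a7a, the mouse psoriasin gene, had 18 counts with M-LPS-EV and 40 with M-EV, a count ratio of 0.482 (95% counting interval 0.260 to 0.861). It did not pass the count filter and was not called without one (edgeR adjusted p = 0.13). In some fits with 1 library left out it passed the filter, which it could do only through its M-EV counts. Without M-LPS-EV replicate 2 it was called (log2 fold change -1.55, edgeR adjusted p = 0.039). It was not called without M-LPS-EV replicate 1, M-LPS-EV replicate 3 or M-EV replicate 1 (edgeR adjusted p = 0.21, 0.25 and 0.064).

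**Figure D4:**
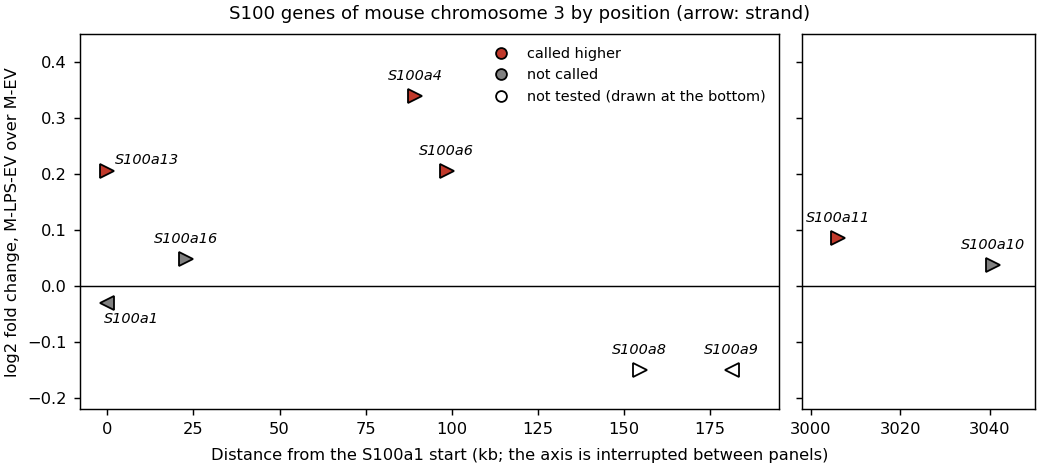
Log2 fold change of M-LPS-EV over M-EV against the distance of each gene's start from the S100a1 start on chromosome 3, in kb, with arrows for the strand and an interrupted axis. The risers S100a4 and S100a6 are next to each other among the members, with S100a5, which is not drawn, between them. S100a13 and S100a1 share a start region, and the untested S100a8 and S100a9 are drawn at the bottom.

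Ordered by TPM, the members ran S100a6, S100a11, S100a10 and S100b in both groups. S100a6 held 41.3% of the summed S100 TPM with M-LPS-EV and 38.5% with M-EV, and S100a11 28.1% in each group. S100a6 averaged 1289.5 ± 30.7 TPM with M-LPS-EV and 1143.5 ± 16.8 TPM with M-EV, 1.47-fold and 1.37-fold above S100a11. S100b, at the fourth place, held 6.95% with M-LPS-EV and 9.66% with M-EV. The next places changed hands: with M-LPS-EV S100a4 (160.3 TPM) stood above S100a1 (153 TPM) with overlapping ranges, whereas with M-EV S100a1 (158 TPM) stood above S100a4 (128 TPM) without overlap. S100a13 (47.3 TPM with M-LPS-EV, 41.5 TPM with M-EV) and S100a16 (28.2 TPM with M-LPS-EV, 30.3 TPM with M-EV) followed, each apart from its neighbours. Below them came S100a9 (0.873 TPM) and S100a8 (0.467 TPM) with M-LPS-EV, with overlapping ranges, and S100a8 (0.703 TPM) and S100a9 (0.243 TPM) with M-EV.

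The receptors of released S100 proteins were mostly expressed. Of 9 listed, 8 had enough counts: 4 rose, 2 fell and the remaining 2 did not pass (median log2 fold change 0.29, against 0.003 over all tested genes, of which 31.6% were called). Without Ager, which passed the count filter only through its M-LPS-EV counts, the median was 0.22. The call of 1 of the fallers, Nptn, was lost in 7 of the 17 alternatives. Bsg, or basigin, a receptor of calprotectin and an inducer of matrix metalloproteinases, averaged 866 ± 14 CPM with M-LPS-EV and 644 ± 7.77 CPM with M-EV (log2 fold change 0.43, SE 0.02, edgeR adjusted p = 1.4e-15). Alcam, a cell adhesion molecule related to RAGE, rose by 0.37 (SE 0.06) and the growth factor receptor Fgfr1 by 0.22 (SE 0.03) on the log2 scale. Tlr4, the LPS receptor, which calprotectin also engages, rose by 0.46 (log2, SE 0.07, edgeR adjusted p = 1.2e-05), a call lost with the effective length offset (0.27, edgeR adjusted p = 0.19) and on log2(TPM + 1) (0.23, limma adjusted p = 0.29). Fgfr1 was also not called on log2(TPM + 1) (0.17, limma adjusted p = 0.063). Ager, the gene of RAGE itself, had 37 counts with M-LPS-EV and 22 with M-EV and did not pass the test (edgeR adjusted p = 0.11); it is named after its values were seen.

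Among 18 genes of intracellular S100 partners 16 could be tested: 7 rose, 3 fell and the other 6 did not pass (median log2 fold change 0.05), beside 31.6% called among all tested genes. The median includes Syt1, which passed the count filter only through its M-EV counts. Syt1 had 20 counts with M-LPS-EV and 37 with M-EV and was not called. The call of 1 riser, Stk38, was lost in 8 of the 17 alternatives. Ahnak, the scaffold that S100a10 and annexin A2 hold at the membrane, averaged 622 ± 24.1 CPM with M-LPS-EV and 503 ± 7.53 CPM with M-EV (log2 fold change 0.31, SE 0.02, edgeR adjusted p = 9.2e-11). Trp53, the gene of p53, which S100a4 and S100b bind, rose by 0.36 (SE 0.03). The annexin genes moved both ways. Anxa11 and Anxa6, whose proteins bind S100a6, had log2 fold changes of -0.34 (SE 0.03, edgeR adjusted p = 5.4e-10) and -0.29 (SE 0.03, edgeR adjusted p = 4.8e-09), whereas Anxa1, the partner of S100a11, rose by 0.25 (SE 0.03, edgeR adjusted p = 1.2e-07). Myh9, the non-muscle myosin heavy chain that S100a4 binds, rose by 0.16 (SE 0.02, edgeR adjusted p = 2.1e-06). Anxa1, Myh9 and Syt1 are named after their values were seen.

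Among 22 genes of other calcium sensors and buffers, of the EF-hand type except Calr, 15 could be tested. Of these 8 fell and 1 rose, while 6 did not pass the test. Among all tested genes 15.2% were called lower and 16.4% higher. The list's median log2 fold change was -0.07. Rcn1, a calcium-binding protein of the endoplasmic reticulum, averaged 181 ± 2.69 CPM with M-LPS-EV and 239.5 ± 2.24 CPM with M-EV (log2 fold change -0.40, SE 0.02, edgeR adjusted p = 8.6e-13). Calu and Calr, further calcium-binding proteins of the secretory pathway, had log2 fold changes of -0.21 and -0.20 (SE 0.02 each). The 1 riser was Calm2, 1 of the calmodulin genes, at 379 ± 12.0 CPM with M-LPS-EV and 306 ± 3.08 CPM with M-EV (log2 fold change 0.31, SE 0.02, edgeR adjusted p = 8.2e-11). Among 7 genes of the fused S100 type, which serve in skin and hair, 5 had no count. Tchh, trichohyalin, was the 1 tested (log2 fold change 0.32, SE 0.11, edgeR adjusted p = 0.022). Its call was lost in 7 of the 17 alternatives. Among them were DESeq2 (adjusted p = 0.084) and the fits without M-LPS-EV replicate 2 or M-EV replicate 2 (edgeR adjusted p = 0.11 and 0.13).

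**Figure D5:**
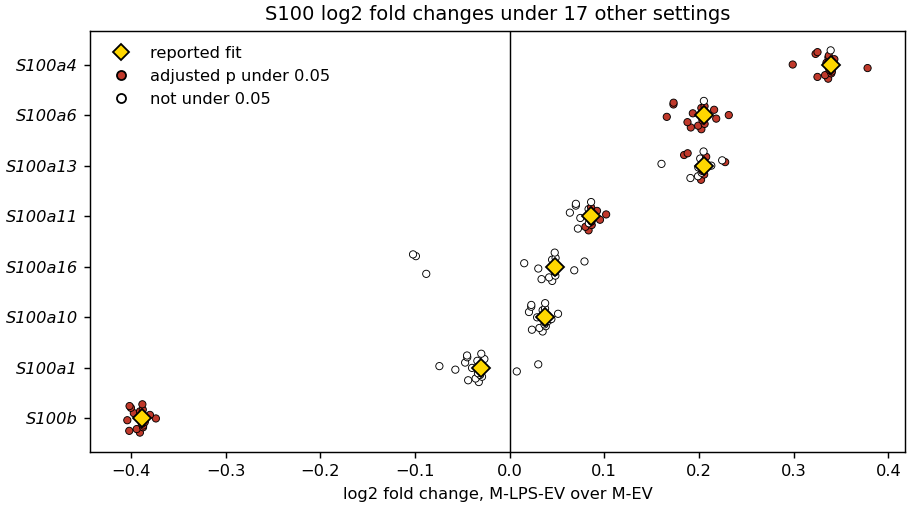
Log2 fold changes of the 8 tested S100 genes in the reported fit (diamonds) and under 17 other settings (circles, filled where the adjusted p is under 0.05). S100b is filled throughout, S100a4 and S100a6 in all but 1 setting, S100a11 and S100a13 are mixed, and S100a1 and S100a16 cross 0.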

How the data were processed

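Per the labels' protocols, stranded mRNA libraries were made from chondrocyte RNA. The aligner STAR, the quantifier RSEM and DESeq2 are named with build mm10 per the submitters' processing notes, with versions and settings not given in the sources used here. The authors deposited 1 table per library of 142699 transcripts with an expected count, an RSEM estimate that can hold fractions. Beside it the authors deposited TPM, scaled by effective length, and IsoPct, the percent of a gene's abundance held by a transcript. Of the transcripts 99.1% were in GENCODE M21 (GRCm38), which gave the coordinates.

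Expected counts were summed per gene and rounded. Genes were filtered with filterByExpr (minimum count 10, minimum total 15), scaled by TMM and fitted with group as the only term (edgeR 4.0.16, R 4.3.3, glmQLFit and glmQLFTest), with Benjamini-Hochberg adjustment over all tested genes and a threshold of 0.05. SE is the log2 fold change over the square root of F, and 95% intervals use its t distribution. Transcript counts were tested alike. Likeness was Pearson r of log2(CPM + 0.1). The fit was tested on simulated data. Counting intervals of ratios are exact and conditional. The members and lists were chosen with earlier results of these data known. Named were all members, other S100 genes with a count, up to 4 genes per list with the smallest p and the 3 genes most like the strongest riser and faller. List and marker genes beyond these were picked after their values were seen. Alternatives were RLE and upper-quartile scaling, no filter, a mean count of at least 50, an effective length offset, the replicate block, each library left out, DESeq2 1.42.0, limma-voom and limma-trend on log2(TPM + 1) and log2(TPM + 0.1) (limma 3.58.1), and edgeR's glmTreat at 1.2-fold. Figures were drawn with matplotlib 3.10.9.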

Additional observations from a re-analysis of the deposited data

How the results depend on the processing

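The number of S100 genes called higher, 4 in the reported fit, was 2 under upper-quartile scaling, the effective length offset and DESeq2, 0 in the test against 1.2-fold, and 2 to 3 with 1 library left out; S100b was the 1 gene called lower under all 17 settings. The count of all genes called higher was 1538 with the length offset, 1280 and 1284 by limma-trend on log2(TPM + 1) and log2(TPM + 0.1), and 760 against 1.2-fold; that of genes called lower was 1329, 1342, 1335 and 377 in the same order. With 1 library left out 2100 to 2245 genes were called higher and 1878 to 2072 lower. No scaling moved the median of all genes by over 0.1 on the log2 scale. S100a4-201 was the 1 S100 transcript called higher, and this count was 0 with no count filter, with the replicate block and in all 6 fits without 1 library. The sign of the log2 fold change turned for S100a16 with the length offset (-0.088) and by limma-trend on log2(TPM + 1) (-0.099) and log2(TPM + 0.1) (-0.10). With 1 library left out, it ranged from -0.074 to 0.030 for S100a1, from -0.076 to 0.0081 for S100a1-201 and from -0.078 to 0.75 for S100a1-202; it turned without M-LPS-EV replicate 1 or M-EV replicate 2 for S100a1, without M-EV replicate 2 for S100a1-201 and without M-EV replicate 1 for S100a1-202. None of these values was called, and the cause was not tested. Samples of equal number in the titles showed no shared deviation (correlations of deviations -0.016, -0.107 and 0.051). That cannot tell whether they were paired, because the labels do not give the origin of the replicates. With the replicate block 4 S100 genes were called higher and 1 lower, as without it. Depth limits what can be said of S100a8, S100a9 and S100a7a.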
